A study of Mus musculus with 3 samples.

Results

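The T cell receptor beta chain is encoded by a V, a D and a J segment that are joined in the DNA of each thymocyte, and the segments described here are those named in the beta chain (TRB) contigs of the receptor library. All 9810 contigs assigned to TRB among 24469 were taken, and they named 35 segments, 21 V, 2 D and 12 J, of 178 receptor segments named in any contig. The cells came from mouse thymus cultures collected at day 13 and were mixed before the libraries were made. ORFTOC cells came from a pair of mixed organoid reaggregate fetal thymic organ cultures, in which thymic epithelial cells grown as organoids were reaggregated with an EpCAM-depleted suspension of fetal thymus cells and mouse embryonic fibroblasts. FTOC cells came from a pair of mixed cultures of intact fetal thymic lobes. The labels give a wild-type genotype and no treatment for all of them. A hashtag antibody marked each pool (HTO_2 for ORFTOC, HTO_1 for FTOC), so that each pool is 1 sample, no test between pools was possible, and every interval given is a 95% Clopper-Pearson interval that covers counting error only.

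During development, D joins J first and V then joins the DJ product. The enzymes trim the segment ends and add bases that no segment encodes, and the resulting junction encodes the third complementarity determining region (CDR3), the stretch of the chain that contacts the peptide. A beta chain that pairs with the pre-T alpha chain forms the pre-T cell receptor, which drives proliferation (beta-selection) before the alpha chain is rearranged. J segments lie in 2 clusters, each behind its own D segment, and TRBD1 can join either cluster whereas TRBD2 lies downstream of cluster 1.

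On chromosome 6 of GRCm38, the locus ran for 667.1 kb from TRBV1 (40891296 to 40891885) to TRBV31 (41557693 to 41558371) in the RefSeq annotation. TRBV1 ended 641.3 kb before TRBD1 (41533201 to 41533212), and TRBV30, the nearest upstream V segment, ended 251.2 kb before it. TRBD2 (41542163 to 41542176) began 8.951 kb after TRBD1, with the J1 cluster between them. TRBV31 lies downstream of all other segments, 9.512 kb past the TRBC2 constant gene. The germline D segments are shown whole, in capitals, because the D calls rest on telling these 2 G-rich sequences apart.
TRBD1: GGGACAGGGGGC
TRBD2: GGGACTGGGGGGGC

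The names of V segments were checked against germline sequence, since some deposited names could not be placed. All 169 contigs named TRBV10 that carried a framework 3 matched germline TRBV4 alone, and none matched TRBV10, which RefSeq lists as a pseudogene. The CDR1 read in all 169 of them is shown because it occurs in germline TRBV4 and not in germline TRBV10.
CDR1 of contigs named TRBV10: ctgggccacgatact
Likewise, 452 of 453 contigs given the double name TRBV12-2 and TRBV13-2 matched TRBV13-2 alone. The resolved names are used throughout, a choice made after the mismatch was seen. Of 35 V entries in RefSeq, 14 were named in no TRB contig, and 2 of these, TRBV21 and TRBV24, are not listed as pseudogenes. In the gene expression library, 64 cells had at least 3 Trbv24 UMIs, and 53 of them held a productive chain of another V segment. Conversely, TRBV29, which RefSeq lists as a pseudogene, was read in 82 productive rearrangements.

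After filtering, 8392 cells remained, 4248 in ORFTOC and 4144 in FTOC. The median immune cell had 5316 gene expression UMIs in ORFTOC and 2483 in FTOC. Productive, full-length, high-confidence TRB chains numbered 1735 in 1654 ORFTOC cells and 2668 in 2472 FTOC cells, with a median of 22 and 18 UMIs per chain. Chains with the same V, J and junction nucleotides in a pool were taken as a clone and counted once, as a rearrangement. This left 1242 in ORFTOC and 2468 in FTOC. The cells of a clone would descend from a single joining event, but separate events that gave the same bases were not told apart.

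Productive chains were found in most cells of the named thymocyte classes, and in smaller shares of the other named classes. A productive chain was found in 92.1% of the 2046 CD4+ CD8+ double positive (DP) thymocytes and in 93.6% of the 565 mature single positive (SP) thymocytes, both pools together. Cluster 4, an unnamed cluster led by histone genes, had one in 96.7% of 448 cells. Epithelial cells, which make no receptor, had one in 4.29% of 2189 cells (95% interval 3.48 to 5.23) at a median of 12744 gene expression UMIs, against 1612 in DP thymocytes. Macrophages, which likewise make none, had one in 14.2% of 141 ORFTOC cells and in 38.6% of 44 FTOC cells. Gamma-delta T cells, which carry another receptor, had one in 21.6% of 176 cells. Among the other unnamed clusters the share ran from 4.57% in cluster 2 to 96.5% in cluster 15. It was 45.9% of 431 cells in cluster 5, 30.4% of 342 in cluster 7 and 44.3% of 122 in cluster 14.

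V segment use was broad in both pools. TRBV13-2 was read most, in 10.7% of ORFTOC rearrangements (9.04 to 12.6) and 10.9% of FTOC rearrangements (9.70 to 12.2). With pools joined, TRBV5 came next, with 8.37% in ORFTOC and 7.66% in FTOC, then TRBV1, the segment farthest from TRBD1, with 6.52% and 7.86%. TRBV20 took 8.21% and 6.61%, and TRBV16 6.84% and 6.89%. Of these 5 segments, TRBV1 and TRBV5 belong to the distal, TRBV13-2 and TRBV16 to the middle and TRBV20 to the proximal part of the upstream V segments. TRBV31, which joins by inversion, took 3.46% (2.52 to 4.64) and 2.998% (2.36 to 3.75).

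Grouped by position, the distal segments TRBV1 to TRBV5 took 28.4% of ORFTOC and 29.7% of FTOC rearrangements. The middle group TRBV12 to TRBV17 took 46.5% and 46.4%, and the proximal group TRBV19 to TRBV30 took 21.6% and 21.0%. In each group the interval of one pool held the value of the other.

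Among the 19 V segments with at least 2% of rearrangements in either pool, 9 had the higher share in ORFTOC and 10 in FTOC. Only TRBV12-1 differed by 1.5-fold or more, which is 5.26% of the 19, with 21 rearrangements (1.69%) in ORFTOC and 65 (2.63%) in FTOC, a ratio of 0.642. The next lowest ratios were those of TRBV29, with 1.69% and 2.47%, and TRBV26, with 4.19% and 5.75%. The highest belonged to TRBV19, with 6.36% and 4.94% (ratio 1.29), TRBV20 (1.24) and TRBV12-2, with 4.43% and 3.57% (1.24). The intervals of the pools overlapped for all 21 V segments, so that 0 (0%) stood apart at this depth.

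**Figure D1:**
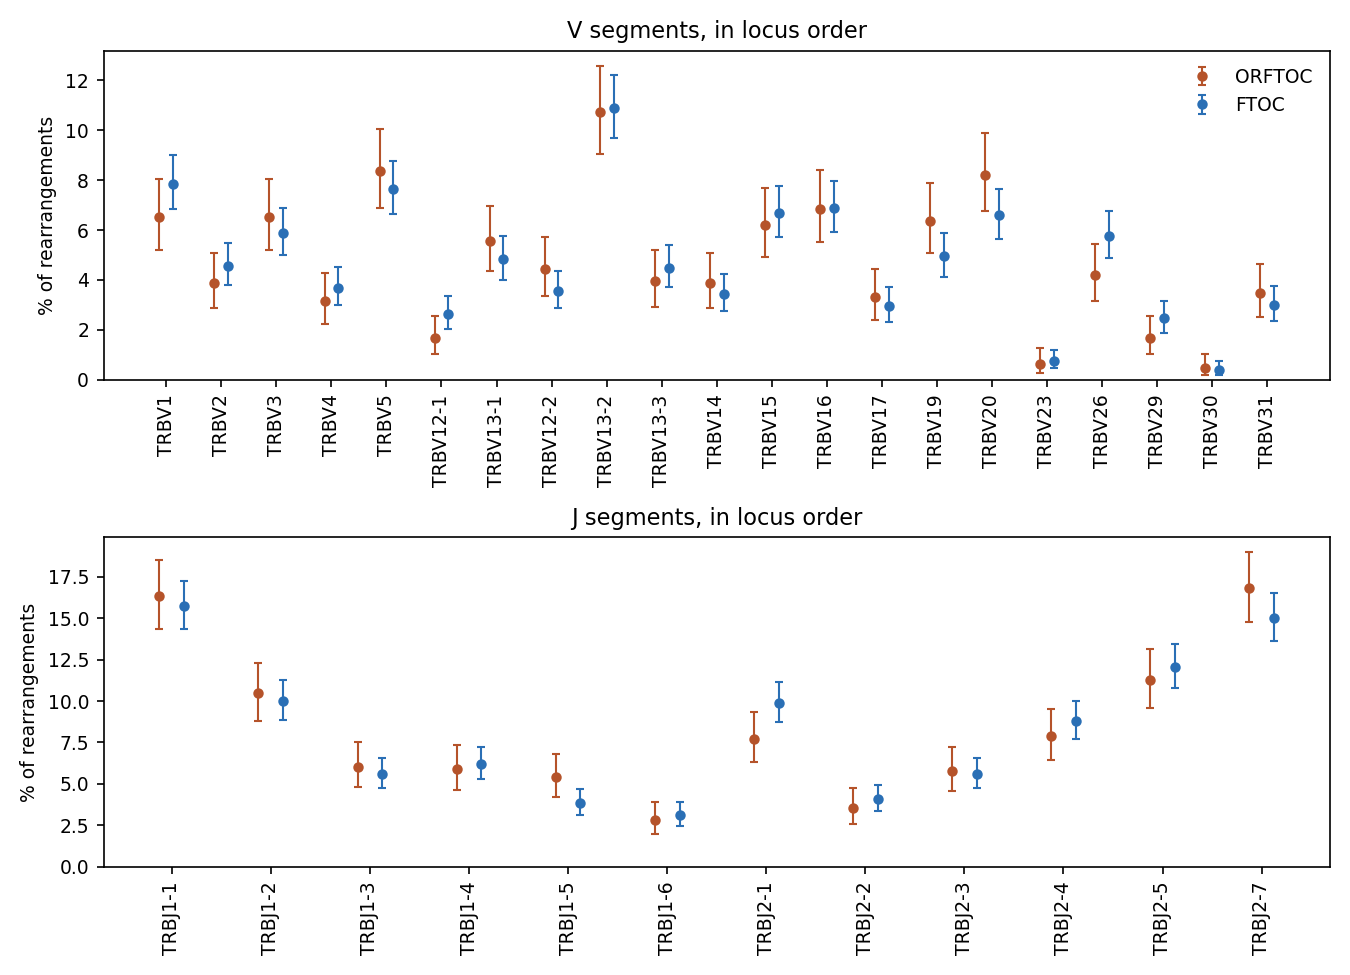
Share of rearrangements (%) by V segment (upper panel) and J segment (lower panel), in locus order, in ORFTOC and FTOC. Points are shares of 1242 and 2468 rearrangements, and bars are 95% Clopper-Pearson intervals, which overlap between pools for every V segment. TRBV13-2 is highest in the upper panel, and TRBJ1-1 and TRBJ2-7 in the lower.

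The gene expression library gave a second reading of V that the contigs did not use. It was taken from the same barcoded cells, so that it is not independent of them. Of 3738 cells with 1 productive chain and any Trbv UMI, 3709 (99.2%) had a UMI of the V segment in their own contig, and 91.8% of the 47164 Trbv UMIs in cells with 1 chain were of that segment. Across the 21 segments, the share of Trbv UMIs and the share of chains were related with Pearson's r = 0.67 in ORFTOC and 0.71 in FTOC, and Spearman's rho = 0.69 and 0.63. These are descriptions over segments that share the same cells and libraries. TRBV5 stood apart on this scale, with 8.99% of ORFTOC chains and 7.38% of FTOC chains but 1.65% and 1.56% of Trbv UMIs.

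J segment use was uneven within both clusters, and alike between pools when all rearrangements were taken. In cluster 1, TRBJ1-1 took 16.3% of ORFTOC and 15.8% of FTOC rearrangements, and TRBJ1-2 took 10.5% and 10.01%. TRBJ1-3 took 6.04% and 5.59%, TRBJ1-4 took 5.88% and 6.20%, and TRBJ1-6 took 2.82% and 3.12%. TRBJ1-5 had the highest ratio between pools, 1.40, with 67 rearrangements (5.40%) in ORFTOC and 95 (3.85%) in FTOC. In ORFTOC the shares of cluster 1 thus fell at each step from the D-proximal to the D-distal end, and in FTOC they did so except at TRBJ1-4.

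In cluster 2, the D-distal TRBJ2-7 led with 16.8% and 15.03%, followed by TRBJ2-5 with 11.3% and 12.1%. TRBJ2-4 took 7.89% and 8.79%, TRBJ2-3 took 5.80% and 5.59%, and TRBJ2-2 took 3.54% and 4.09%. TRBJ2-1 had the lowest ratio between pools, 0.782, with 7.73% and 9.89%. TRBJ1-7 and TRBJ2-6 were in no rearrangement. None of the 12 J segments (0%) differed by 1.5-fold.

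Cluster 1 took 46.9% of rearrangements in ORFTOC (44.1 to 49.8) and 44.5% in FTOC (42.6 to 46.5). Counted per cell it took 49.2% and 45.2%, since repeated rearrangements weigh more there. In DP thymocytes it took 49.2% of ORFTOC and 46.4% of FTOC rearrangements. In mature SP thymocytes it took 49.5% (43.9 to 55.2) and 38.3% (31.8 to 45.2). Among rearrangements found in 2 or more cells, cluster 1 took 51.5% of 264 in ORFTOC and 55.1% of 167 in FTOC, against 45.7% and 43.8% of those found in 1 cell. The intervals of these groups overlapped in ORFTOC (45.3 to 57.7 and 42.6 to 48.9) and did not in FTOC (47.2 to 62.8 and 41.7 to 45.8), a comparison chosen after the values were seen. Over both pools, the cluster 1 share of the 19 V segments with at least 2% in either pool ran from 35.7% of 255 rearrangements with TRBV16 and 39.3% of 293 with TRBV5 to 53.6% of 265 with TRBV20 and 55.7% of 194 with TRBV26. TRBV1, the segment farthest from TRBD1, had 51.6%. By pool, the cluster 1 share of the distal group TRBV1 to TRBV5 was 51.6% in ORFTOC (46.2 to 56.9) and 42.8% in FTOC (39.1 to 46.4). It was 41.2% and 44.1% for the middle group, and 54.1% and 47.6% for the proximal group. The intervals of the pools overlapped in each of these groups. Of the rarer V segments, TRBV30 joined cluster 1 in 2 of 16 rearrangements (12.5%, 1.55 to 38.4) and TRBV23 in 15 of 27 (55.6%, 35.3 to 74.5).

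In the names given to contigs, each constant region followed its J cluster. Of productive chains with a constant region named, all 2026 with a cluster 1 J carried TRBC1 and all 2328 with a cluster 2 J carried TRBC2. In the gene expression library, Trbc1 had 62.9% of Trbc UMIs in ORFTOC cells with a cluster 1 chain and 26.3% in those with a cluster 2 chain, and in FTOC 62.4% and 23.7%. Trbc1 and Trbc2 are near-identical, so that the gene expression assignment between them is uncertain. Whether the constant region of a contig was named independently of its J segment is not known, so the contig names cannot test the pairing.

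The D segment was named in 29.95% of ORFTOC and 30.8% of FTOC rearrangements. TRBD1 made up 71.5% of the named D segments in ORFTOC and 70.0% in FTOC. Both D segments contributed to cluster 2, with 102 TRBD1 and 105 TRBD2 in ORFTOC and 232 TRBD1 and 228 TRBD2 in FTOC. Cluster 1 was joined to TRBD1 in 164 of 165 ORFTOC and 299 of 299 FTOC rearrangements. The single exception, 1 of 334 rearrangements named TRBD2, carried TRBV20 and TRBJ1-5 in 1 ORFTOC cell. Its junction is shown, with the 9 bases between the V and J matches in capitals, because their longest exact match, 5 bases, is to TRBD1 and not to TRBD2.
TRBV20 with TRBJ1-5, named TRBD2: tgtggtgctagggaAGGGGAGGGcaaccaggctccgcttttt

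Naming of D depended on the length of the junction. A D was named in 11.6% of rearrangements with a CDR3 of at most 12 amino acids, in 29.4% of those with 13 or 14 and in 42.6% of those with 15 or more. Rearrangements with TRBD2 were longer, at 15.1 ± 1.46 amino acids (mean and SD over rearrangements) in ORFTOC and 15.1 ± 1.42 in FTOC, than those with TRBD1, at 14 ± 1.28 and 14.3 ± 1.40. When D was instead called from the longest exact match, the TRBD1 share fell as the minimum match rose. In ORFTOC it was 61.25% with at least 5 bases, 50.7% with 8 and 38.6% with 10. In FTOC it was 49.8% with at least 8 bases. The excess of TRBD1 thus depended on the limit. A cluster 1 J was held by 18 of 336 ORFTOC rearrangements called TRBD2 (5.36%) with at least 5 bases. With at least 8 bases it was held by 8 of 746 over both pools (1.07%), and with at least 9 bases by none.

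**Figure D2:**
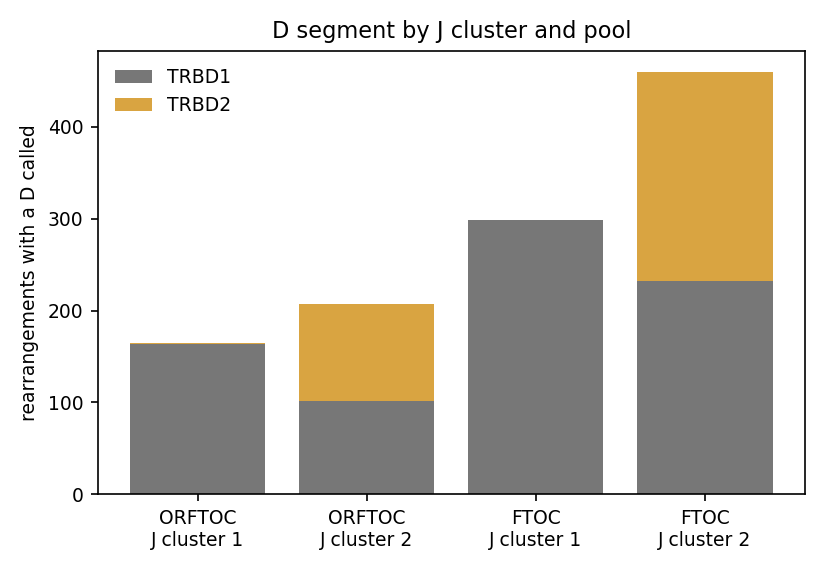
Number of rearrangements (vertical axis) with a named D segment, by J cluster and pool, stacked by D segment. TRBD2 fills about the same height as TRBD1 with J cluster 2, and is 1 of 165 in ORFTOC and 0 of 299 in FTOC with J cluster 1.

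V and J segments were combined widely. Of 252 possible pairs, 244 were seen over both pools. Among the 146 pairs with at least 10 rearrangements expected from the use of each segment, 132 lay between 0.67 and 1.5 times the expected number. The highest were TRBV13-1 with TRBJ1-3 (17 observed, 10.8 expected), TRBV20 with TRBJ1-4 (25 and 16.1) and TRBV2 with TRBJ1-2 (25 and 16.4), and each was above expectation in both pools. The lowest was TRBV26 with TRBJ2-3, seen once against 10.98 expected, in FTOC. TRBV2 with TRBJ2-4 (7 and 13.7) and TRBV12-2 with TRBJ1-2 (8 and 14.5) followed. TRBV2 with TRBJ2-4 was below expectation in FTOC (3 against 9.94) and not in ORFTOC (4 against 3.79).

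Non-productive contigs, those not marked productive in the deposited list, made up 13.4% of full-length contigs in ORFTOC (11.96 to 14.99) and 14.1% in FTOC (12.9 to 15.4). They were read with a median of 5 and 4 UMIs, against 22 and 18 for productive chains. No junction had been read in 47.6% and 50.3% of them, and for these it is not known whether the join could give a chain. A non-productive contig accompanied a productive chain in 552 of 4126 cells, and stood without one in 130 cells. Their cluster 1 share was 50.2% in ORFTOC and 51.1% in FTOC.

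The non-productive share differed by V segment, and TRBV31 was highest with pools joined. TRBV31 contigs were non-productive in 30.1% of cases over both pools (23.7 to 37.1), 29 contigs in each pool, against 13.9% over all segments. Within pools its share was 35.4% in ORFTOC and 26.1% in FTOC. TRBV31 accordingly made up 8.19% of non-productive contigs and 3.15% of productive rearrangements. TRBV4 (19.8%), TRBV14 (19.5%) and TRBV13-1 (19.4%) followed, and TRBV1 was low at 8.65%. For TRBV13-1 the non-productive contigs were split unevenly, with 9 beside 98 productive chains in ORFTOC and 45 beside 126 in FTOC. TRBV31 had 29 beside 82 in FTOC, so that its share did not exceed that of TRBV13-1 in that pool. The V segments named here were chosen after their values were seen.

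**Figure D3:**
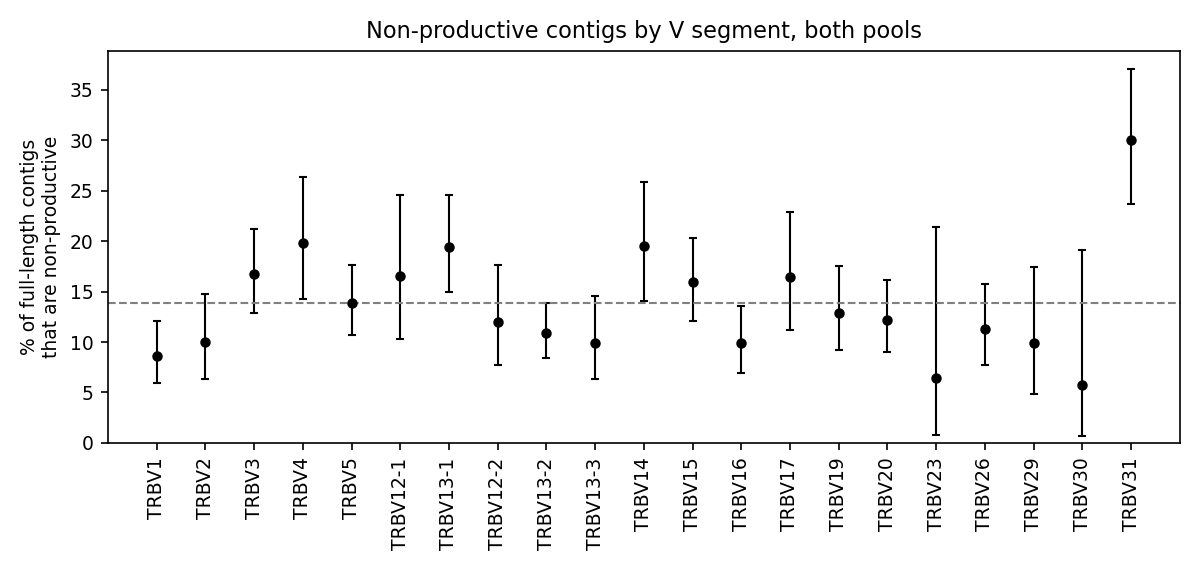
Share of full-length high-confidence contigs that are non-productive (%) by V segment in locus order, both pools together. Points are shares, bars are 95% Clopper-Pearson intervals and the dashed line is the share over all segments, 13.9%; TRBV31 lies above it at 30.1%.

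Most cells with a beta chain held 1, and allelic exclusion normally limits a cell to a single beta chain. A pair of productive chains was found in 81 ORFTOC cells (4.90%, 3.91 to 6.05) and 196 FTOC cells (7.93%, 6.89 to 9.07). Among contigs that the deposited list marks as cells, the shares were lower, 2.81% and 4.01%. In all, 0 of 4126 cells held 3 or more (upper limit 0.0894%). In the cells with a pair, the second chain had a median of 0.478 times the UMIs of the first in ORFTOC and 0.559 times in FTOC. The second chain was also found in another cell of the data in 35.8% and 14.3% of cases. Over all TRB chains, 43.6% in ORFTOC and 13.8% in FTOC belonged to a rearrangement found in more than 1 cell of the pool. Cells with a pair of chains had more gene expression UMIs, at a median of 5872 against 5313 in ORFTOC and 2984 against 2083 in FTOC, and the part of cell doublets in these counts was not tested.

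The CDR3 of rearrangements measured 13.7 ± 1.49 amino acids in ORFTOC and 13.9 ± 1.58 in FTOC, and ranged from 7 to 19 over both pools. Between the matches to germline V and J lay 9.14 ± 3.99 bases in ORFTOC and 9.78 ± 4.06 in FTOC. Where a D match of at least 5 bases was found, 2.63 ± 2.21 bases in ORFTOC and 3.06 ± 2.29 in FTOC matched no segment. None were left over in 19.98% and 13.4% of those rearrangements. Cluster 1 chains were shorter than cluster 2 chains, at 13.5 and 13.9 amino acids in ORFTOC and 13.7 and 14.1 in FTOC.

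The pools held thymocyte classes in different proportions, and in both pools the CDR3 was shorter in mature SP than in DP thymocytes. In DP thymocytes the CDR3 measured 14.01 ± 1.49 amino acids in ORFTOC (437 rearrangements) and 14.15 ± 1.53 in FTOC (1364). In mature SP thymocytes, which have passed selection, it measured 13.4 ± 1.33 (319) and 13.2 ± 1.52 (214). The difference between classes was smaller than 1 SD among rearrangements. The part between V and J was 9.995 bases in DP and 8.19 in mature SP thymocytes of ORFTOC, and 10.1 and 8.27 in FTOC. The share with no base left over was taken only over rearrangements with a D match. In ORFTOC it was 10.98% of 337 in DP and 31.7% of 230 in mature SP thymocytes. In FTOC it was 9.52% of 1103 and 36.1% of 155.

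The other classes had higher means than mature SP thymocytes in both pools. Selected thymocytes, named from a marker list and led by Cd5 and Itm2a, measured 13.6 ± 1.43 amino acids in ORFTOC and 13.9 ± 1.46 in FTOC. Cluster 4 measured 13.97 ± 1.61 and 14.2 ± 1.59, and cycling thymocytes 13.7 ± 1.53 and 13.7 ± 1.54. Thus FTOC exceeded ORFTOC in mean length over all rearrangements, but not within mature SP thymocytes.

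**Figure D4:**
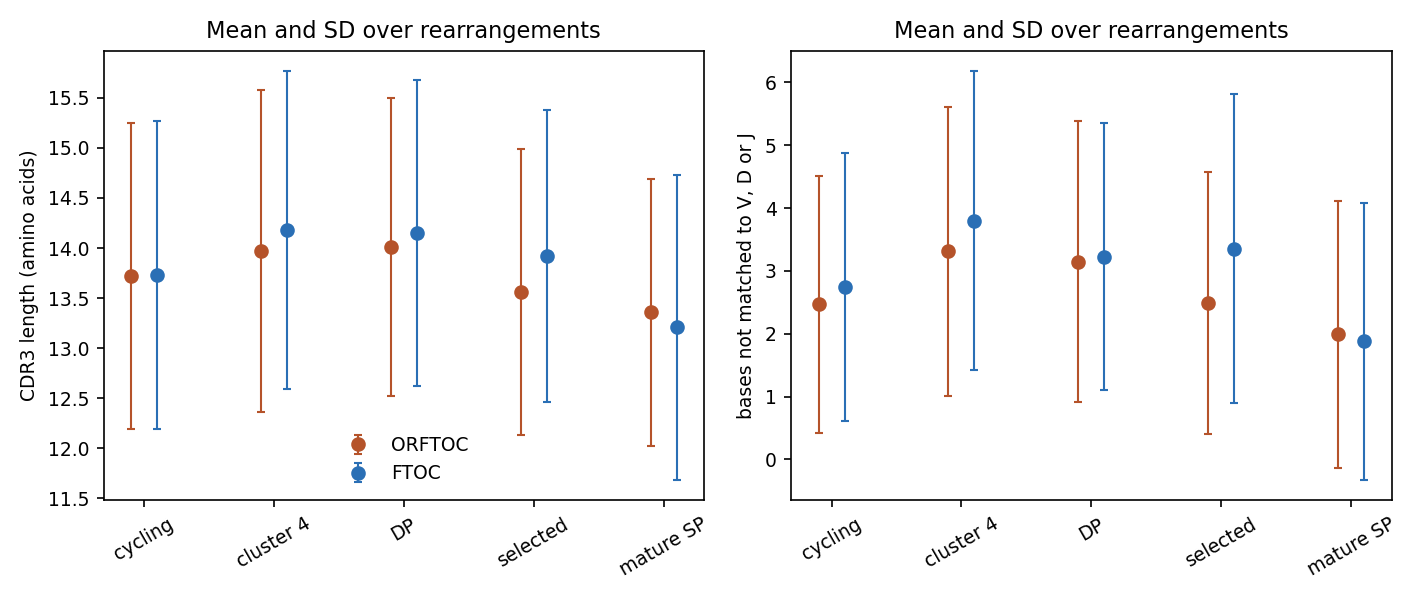
CDR3 length in amino acids (left) and bases of the junction that match no V, D or J segment (right) by thymocyte class, in ORFTOC and FTOC. The right panel covers only rearrangements with a D match of at least 5 bases. Points are means and bars are SDs over rearrangements within a pool; mature SP thymocytes have the lowest mean in both panels and both pools, by less than 1 SD.

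V use also differed between the classes when pools were joined. The intervals of DP and mature SP thymocytes did not overlap for 3 of 21 V segments (14.3%) over both pools. TRBV12-2 had 3.11% of 1801 DP and 6.57% of 533 mature SP rearrangements, and TRBV31 had 2.28% and 5.07%. TRBV29 had 2.28% and 0.375%. Each of these differences had the same direction in both pools, for example 2.75% and 6.58% for TRBV12-2 in ORFTOC and 3.23% and 6.54% in FTOC. Within either pool alone, 0 of the 21 segments (0%) had intervals that stood apart. The joined comparison mixes class with pool, since FTOC gave 1364 of the 1801 DP and ORFTOC 319 of the 533 mature SP rearrangements. These segments were named after their values were seen.

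Clones, in the sense of cells with the same V, J and junction nucleotides, were larger in ORFTOC. There 264 of 1242 rearrangements (21.3%) were found in more than 1 cell, 157 in 2 cells, 78 in 3 or 4 and 29 in 5 or more, and the last held 186 cells. In FTOC 6.77% of 2468 were found in more than 1 cell, 141 in 2 cells, 24 in 3 or 4 and 2 in 5. The junctions of the 3 largest clones of each pool are shown because the clone is defined by them, with the bases between the V and J matches in capitals. Ranks at 8 cells in ORFTOC and at 4 in FTOC were tied, and all tied at 8 and 1 of those tied at 4 are shown.
ORFTOC, TRBV30 with TRBJ2-5: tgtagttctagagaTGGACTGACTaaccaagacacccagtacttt
ORFTOC, TRBV13-3 with TRBJ1-1: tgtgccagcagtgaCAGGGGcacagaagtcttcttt
ORFTOC, TRBV26 with TRBJ1-2: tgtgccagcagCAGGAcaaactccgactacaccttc
ORFTOC, TRBV5 with TRBJ2-4: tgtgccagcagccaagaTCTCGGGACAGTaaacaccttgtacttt
FTOC, TRBV17 with TRBJ2-7: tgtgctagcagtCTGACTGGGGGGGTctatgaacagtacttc
FTOC, TRBV2 with TRBJ2-7: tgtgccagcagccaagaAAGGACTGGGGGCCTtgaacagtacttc
FTOC, TRBV1 with TRBJ1-2: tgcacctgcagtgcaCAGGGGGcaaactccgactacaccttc

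The largest clone, TRBV30 with TRBJ2-5, had 17 cells, although TRBV30 made up 0.483% of ORFTOC rearrangements. They were 7 cells of cluster 4, 5 DP and 3 cycling thymocytes, 1 cell of the unnamed cluster 14 and 1 macrophage. The next, TRBV13-3 with TRBJ1-1, had 12 cells, and all 12 were mature SP thymocytes. Its 6 bases between V and J match TRBD1 over their whole length, with no base left over. The TRBV26 and TRBV5 clones had 8 cells each, and those of TRBV26 included 1 epithelial cell. The part of free RNA or cell doublets in clone sizes was not tested. In FTOC, the TRBV17 and TRBV2 clones had 5 cells each, and the TRBV1 clone had 4. The deposited D of the TRBV2 clone was TRBD1, whereas 10 bases of it match TRBD2.

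Cells of a clone rarely shared an alpha chain. All 4 cells of the TRBV30 clone with an alpha contig had different ones, and the 11 mature SP cells of the TRBV13-3 clone with one held 14 different chains, none shared. Of clones with an alpha chain in at least 2 cells, none was shared by 2 cells in 60 of 63 ORFTOC clones and in 23 of 27 FTOC clones.

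Of the classes compared, repeated rearrangements were most frequent in cluster 4 and least frequent in cluster 5, an unnamed cluster led by Ly6c2, with 11.3% of 71 ORFTOC chains and 3.60% of 139 FTOC chains. In ORFTOC, 73.8% of chains in cluster 4 (67.8 to 79.3), 49.6% in DP (45.4 to 53.9) and 22.4% in mature SP thymocytes (18.1 to 27.2) belonged to a rearrangement found in 2 or more cells. The same shares in FTOC were 21.8% (16.6 to 27.9), 14.9% (13.1 to 16.8) and 4.63% (2.24 to 8.35). Cycling thymocytes had 46.6% and 14.7%, and selected thymocytes 35.2% and 8.84%. ORFTOC was above FTOC in each of these classes, although fewer rearrangements were sampled in it and the number of founding cells per culture is not known. In ORFTOC, the 17 repeated rearrangements with at least 2 mature SP cells had 6.41 ± 3.68 bases between V and J. The other 247 repeated ones had 9.31 ± 3.94, and all 319 mature SP rearrangements of ORFTOC had 8.19 ± 3.83. The split mixes repetition with cell class and was made after the values were seen. In FTOC only 2 repeated rearrangements had at least 2 mature SP cells.

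**Figure D5:**
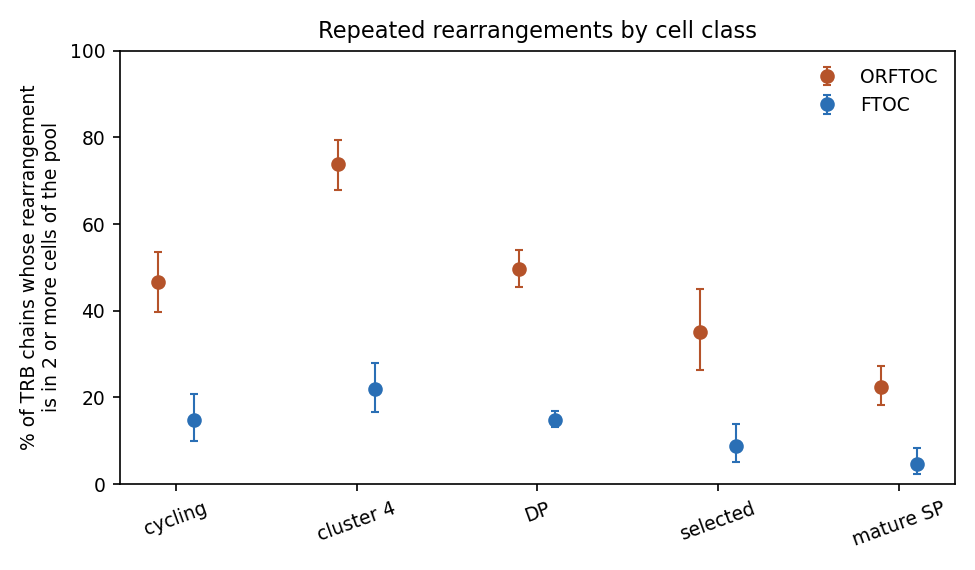
Share of TRB chains whose rearrangement was found in 2 or more cells of the same pool (%), in cycling, DP, selected and mature SP thymocytes and cluster 4, in ORFTOC and FTOC. Points are shares and bars are 95% Clopper-Pearson intervals; ORFTOC runs from 22.4% to 73.8% and lies above FTOC, 4.63% to 21.8%, in each class drawn.

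Few rearrangements were found in both pools. The same V, J and junction nucleotides occurred in 24, which is 1.93% of ORFTOC and 0.972% of FTOC rearrangements, and 16 of these had at least 3 UMIs in a cell of each pool. The count was 37 when hashtags were called by ratio, 10 with at least 1000 genes per cell and 12 among contigs marked as cells. By amino acids, 41 were found in both pools, and 33 with at least 3 UMIs. The 5 found in most cells are shown, with the bases between the V and J matches in capitals, because the same bases were read in cells of both pools. Another, TRBV1 with TRBJ1-4, was tied at 3 cells.
TRBV1 with TRBJ1-2: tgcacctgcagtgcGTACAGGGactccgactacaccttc
TRBV15 with TRBJ1-1: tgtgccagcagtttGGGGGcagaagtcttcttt
TRBV15 with TRBJ1-4: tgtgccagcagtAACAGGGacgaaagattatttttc
TRBV17 with TRBJ2-4: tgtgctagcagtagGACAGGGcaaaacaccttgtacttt
TRBV5 with TRBJ1-3: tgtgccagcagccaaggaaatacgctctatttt

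TRBV1 with TRBJ1-2 had 7 ORFTOC cells and 1 FTOC cell, and the FTOC cell rested on 1 UMI. TRBV15 with TRBJ1-1 had 2 cells in each pool. TRBV5 with TRBJ1-3 had 1 and 2 cells, at least 17 UMIs in each, and no base between V and J. TRBV15 with TRBJ1-4 had 1 and 2 cells, and TRBV17 with TRBJ2-4 had 2 and 1.

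The 16 shared rearrangements with at least 3 UMIs had a mean of 5.5 bases between V and J (median 6.5, from 0 to 13), against 9.57 (median 10) over all 3710. At most 6 bases were found in 8 of the 16 (50%) and in 23.0% of all, with the limit of 6 set after the values were seen. In their cells at least 72.0% of hashtag UMIs were of the cell's own pool, and the part of misassigned cells or free RNA in this sharing was not tested.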

How the data were processed

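The labels name Cell Ranger 6.1.2 and Seurat 4.2.0 and the mm10 build for these data, whereas the header of the count matrix names Cell Ranger 4, so that the version behind the gene expression counts is unsettled. The authors deposited UMI counts per gene and hashtag and a list of assembled receptor contigs with read and UMI counts, of which the unfiltered list was used; how Cell Ranger assigned V, D and J names beyond this is not given in the sources used here. Cells with at least 600 genes and 0.4 to 10% mitochondrial UMIs were kept, 10245 of 10910 barcodes with enough genes. Hashtags were called with HTODemux (Seurat 5.3.0, R 4.3.3, positive quantile 0.99), and 590 doublets, 672 negatives and 591 within-pool doublets (neighbour rule) were removed. Clusters (sctransform 0.4.2, 18 principal components, resolution 0.4, and 1 for immune cells) were made without receptor genes and named only from marker lists. Productive and non-productive contigs had to be full-length and high-confidence. Junctions were split by exact match to the ends of germline V and J segments (GENCODE), anchored on the last 24 bases of framework 3, and D was matched over at least 5 bases, a routine tested on simulated junctions. Locus positions came from RefSeq on GRCm38.p6. Shares have 95% Clopper-Pearson intervals (SciPy 1.17.1).

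The V segments named were the 5 most used, the 3 highest and 3 lowest in ratio between pools, TRBV1 and TRBV31, with the 3 largest clones of each pool, up to 5 shared rearrangements and the 3 highest and 3 lowest V to J pairs. Segments, lists and rules were chosen with earlier results of these data known. Summed TRB UMIs were 53743 in ORFTOC and 64374 in FTOC. UMIs in droplets can come from free RNA, and a pool mixes its cultures, so that no spread between cultures can be given.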

Additional observations from a re-analysis of the deposited data

Results flagged for a closer look

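A large set of contigs outside the TRB chains carried a TRBJ segment but no V segment and no chain. There were 9459 of them in the whole list, with a median of 7 UMIs, and none had a D named. J cluster 1 made up 20.8% of them (19.9 to 21.6), and TRBJ2-1 (33.7%), TRBJ2-7 (25.9%) and TRBJ2-3 (10.96%) led, whereas TRBJ1-1, a leading segment of the complete chains, had 4.24%.

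Such contigs were also found in cells without a complete chain. In cluster 2, unnamed and led by Igfbp7, Chad and Il22, they were found in 87.2% of 547 cells (84.1 to 89.9), and 453 of the 522 cluster 2 cells without a productive TRB chain held one. Gamma-delta T cells had them in 83.5%, cluster 9 (led by Il13 and Areg) in 86.5%, and DP thymocytes in 62.0%. Epithelial cells had them in 5.89% of 2189 cells, at a higher depth.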

How the results depend on the processing

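Over 25 results and 10 alternatives, 196 of 214 values lay within the interval of the reported value, and 18 lay outside. The non-productive share was 11.04% in ORFTOC and 11.62% in FTOC with at least 3 UMIs, 11.23% and 12.9% in cells with exactly 1 productive chain, and 11.25% and 12.39% among contigs the deposited list marks as cells. The share of cells with a pair of chains was 6.593% in ORFTOC when hashtags were called by ratio, and 2.812% in ORFTOC and 4.012% in FTOC among contigs marked as cells. It has no value in cells with exactly 1 chain. Rearrangements found in both pools numbered 37 with hashtags by ratio, 10 with at least 1000 genes per cell and 12 among contigs marked as cells, against 24. With at least 1000 genes, the FTOC mean CDR3 was 13.86 amino acids and the FTOC share of chains in repeated rearrangements 12.26%, against 13.76%. With V names as deposited, the distal group took 25.08% and 25.92%, because TRBV10 is outside it. With D matches of at least 8 bases, TRBD1 took 50.73% and 49.75%. The cause of the other shifts was not tested. The mean CDR3 of DP thymocytes stayed between 13.95 and 14.03 in ORFTOC and 14.13 and 14.18 in FTOC under these alternatives, and that of mature SP thymocytes between 13.33 and 13.37 and between 13.17 and 13.24. The deposited-name, marked-as-cells and D-match alternatives were chosen after seeing the data. No paired analysis was possible because each pool is 1 sample and no result comes from a test.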
